A study of Mus musculus with 4 samples.

Results

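The miR-17-92 cluster is a group of 6 microRNA hairpins made from a common primary transcript. Its strands were chosen by name, as every probe set on the array called mmu-miR-17, mmu-miR-17*, mmu-miR-18a, mmu-miR-19a, mmu-miR-19b, mmu-miR-20a, mmu-miR-20a* or mmu-miR-92a (the species prefix is dropped from here on). All 8 were present among 577 miRNA names on the array, and all 8 were bright enough to be tested. The star marks the less abundant strand of a hairpin. The RNA came from A3-1 cells, a mouse embryonic stem cell line, kept in DMEM with 20% fetal bovine serum and the self-renewal cytokine LIF. One group received an siRNA against Lin28a (siLin28a) and the other an siRNA against GFP as the control (siGFP), each for 48 h. Each group had 2 replicates, each hybridised to 1 single-colour (Cy3) array from 100 ng of total RNA. The labels do not say that replicates were separate cultures, so the p-values describe the spread of these 4 samples alone, and that spread may be technical.

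The cluster is known as a driver of proliferation. Its transcript is activated by MYC and E2F factors, and its guides repress cell cycle inhibitors and pro-apoptotic genes. miR-17 and miR-20a repress Cdkn1a, and several members repress Bcl2l11. Although the hairpins share a transcript, each is cut out by the nuclear enzyme DROSHA on its own, so mature levels can differ between members. LIN28A binds RNA and holds back let-7 precursors before they mature, through a GGAG motif in their terminal loop. The mouse has a paralogous cluster, miR-106b-25, in an intron of Mcm7, and another, miR-106a-363, on the X chromosome.

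The mature strands are shown because their seeds (bases 2 to 8, in capitals) group the members, and because near-identical sequences limit what the array can tell apart. They are RefSeq sequences on build GRCm38.p6, matched for 8 of 8 members.
miR-17: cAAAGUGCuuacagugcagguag
miR-20a: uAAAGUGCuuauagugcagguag
miR-18a: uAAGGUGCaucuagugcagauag
miR-19a: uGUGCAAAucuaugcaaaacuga
miR-19b: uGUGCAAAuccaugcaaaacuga
miR-92a: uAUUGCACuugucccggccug
miR-17*: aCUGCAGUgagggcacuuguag
miR-20a*: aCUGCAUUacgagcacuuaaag
miR-17 and miR-20a share a seed, and so do miR-19a and miR-19b. Counted from the 5′ end, miR-17 differs from miR-20a by C1U and C12U, and miR-19a differs from miR-19b by U11C. The paralogs with the same seeds are shown for comparison.
miR-106a: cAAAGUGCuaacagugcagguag
miR-20b: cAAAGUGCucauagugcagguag
miR-106b: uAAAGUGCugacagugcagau
miR-93: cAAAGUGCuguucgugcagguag
miR-18b: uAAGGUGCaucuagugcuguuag
miR-25: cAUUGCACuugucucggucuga
miR-17 differs from miR-106a only by U10A. miR-20a differs from miR-20b by U1C and U10C, and miR-18a differs from miR-18b by A18U and A20U. Mature miR-19b and miR-92a are each made from 2 RefSeq loci, 1 in miR-17-92 and 1 in the X-linked cluster, so their signals cannot be assigned to a locus.

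The 6 hairpins lie within 836 bases on the plus strand at chr14:115043671-115044506 (GRCm38.p6). The RefSeq entry of the host lncRNA, Mir17hg, runs from 115044390 to 115046728. Only the Mir92-1 hairpin lies inside that entry, Mir19b-1 overlaps it by 2 bases, and the other 4 lie upstream of it. Exon and intron limits were not used here. Hairpins are shown with the mature strands that RefSeq annotates in capitals, since the stretch between them is the loop that a precursor-binding protein would meet.
Mir17: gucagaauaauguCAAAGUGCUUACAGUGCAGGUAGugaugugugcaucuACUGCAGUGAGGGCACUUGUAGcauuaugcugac
Mir18: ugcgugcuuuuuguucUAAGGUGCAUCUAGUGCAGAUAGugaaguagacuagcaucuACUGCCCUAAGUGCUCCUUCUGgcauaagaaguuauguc
Mir20a: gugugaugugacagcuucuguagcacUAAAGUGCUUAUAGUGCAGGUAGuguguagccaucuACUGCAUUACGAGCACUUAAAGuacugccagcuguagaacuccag
Mir92-1: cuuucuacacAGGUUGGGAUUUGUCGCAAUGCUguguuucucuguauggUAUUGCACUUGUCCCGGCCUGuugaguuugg
The letters GGAG were searched on the RNA strand of whole hairpins. They were found in 0 of the 6 hairpins of the cluster, in 9 of 11 let-7 hairpins and in 447 of 1005 RefSeq mouse hairpins (44.5%). Among hairpins of 80 to 107 bases, the range of the cluster, the share was 46.0%. A missing match says only that these letters are not in the hairpin.

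The array held 18 probes for the 8 strands, each printed 10 times (5 times for miR-20a*). Per the file headers the probe targets are placed on build mm9, from chr14:115442915-115442928 for miR-17 to chr14:115443702-115443718 for miR-92a. Measured from the 3′ end of miR-17, the targets of all 8 strands end at the same distances as the RefSeq mature strands do. Each target was therefore taken to cover the 3′ end of its strand, over 13 to 21 bases for the 16 probes that were bright enough. Distances from miR-17 would not show a shift common to all targets, and the targets were not checked by sequence. Target stretches are shown in capitals for miR-17, the member with the shortest ones, and for miR-92a.
miR-17, shorter probe: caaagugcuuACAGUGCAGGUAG
miR-17, longer probe: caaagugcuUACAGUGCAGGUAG
miR-92a, longer probe: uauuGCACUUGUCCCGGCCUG
The 13-base stretch of the shorter miR-17 probe also occurs in miR-106a, and the scanner files list both names for that probe. The longer one differs from miR-106a at 1 base. Of the 16 probes, 15 have a stretch found in no other RefSeq mouse miRNA sequence, and 8 have a stretch that differs from another at 1 base only. These are the probes of miR-17, miR-20a, miR-19a and miR-19b. The signal of miR-17 therefore holds an unknown part from miR-106a. Both miR-17 probes also differ from miR-20a at 1 base, and both miR-20a probes from miR-17 and from miR-20b. The probes of miR-19a and miR-19b differ from the other strand at 1 base. Whether the brighter miR-20a and miR-19b add to the signals of miR-17 and miR-19a was not tested, so these members may not be measured apart.

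The 4 arrays lay on 1 slide, and between 32.5% and 38.8% of their spots were well above background, with the siLin28a arrays the brighter ones. Of 14 embryonic stem cell markers (the miR-290-295 cluster), 13 were detected on all 4 arrays, against 0 of 5 primed pluripotent markers and 0 of 3 muscle markers. The summed unscaled signal of the stem cell markers was 67132 and 69633 on the siLin28a arrays and 60758 and 60475 on the siGFP arrays. miR-302a, miR-302b, miR-302c and miR-302d, which mark the primed state, were detected on none. The remaining primed marker, miR-367, was detected on some arrays but not on all. Of 7 fibroblast or feeder markers, 5 were detected on all arrays, and their summed unscaled signal was 1077 and 1204 on the siLin28a arrays and 908 and 871 on the siGFP arrays. Of 4 neural markers, 3 were detected on all arrays, and miR-9 on none, with unscaled sums of 244 and 330 on the siLin28a arrays and 209 and 255 on the siGFP arrays. Of 4 blood markers, 2 were detected on all arrays, with unscaled sums of 157 and 110 on the siLin28a arrays and 125 and 99.6 on the siGFP arrays. For comparison, the median ratio of unscaled signal over all tested miRNAs was 1.16. The part of the markers in the results was not tested. miRNA arrays do not measure Lin28a mRNA, so the knockdown itself is not seen here.

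Knockdown of Lin28a was set against the GFP control to ask how mature miRNA levels depend on LIN28A. All 8 strands of miR-17-92 had lower scaled levels on both siLin28a arrays than on either siGFP array, with differences from -0.54 to -0.24 on the log2 scale, but none passed the test. The scaled level is the spot signal divided by the array's 75th percentile over probes well above background, so each value is relative to the other miRNAs. A lower mean alone was seen for 114 of all 231 tested miRNAs (49.4%). With limma, 0 of 231 (0.0%) were lower and 2 (0.866%) higher at an adjusted p below 0.05, and adjusted p-values of the 8 strands ran from 0.159 to 0.260. At an unadjusted p below 0.05 there were 3 of the 8 (miR-17, miR-19b and miR-92a), against 26 lower miRNAs (11.3%) and 31 higher ones (13.4%) among all tested. Groups that did not overlap in the lower direction were seen for 71 of all tested miRNAs (30.7%), against 8 of 8 here. The median difference of the 8 strands was -0.31 on the log2 scale, against 0.00 over all tested miRNAs. In bulk RNA, fewer cells of a type and less RNA per cell cannot be told apart.

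**Figure D1:**
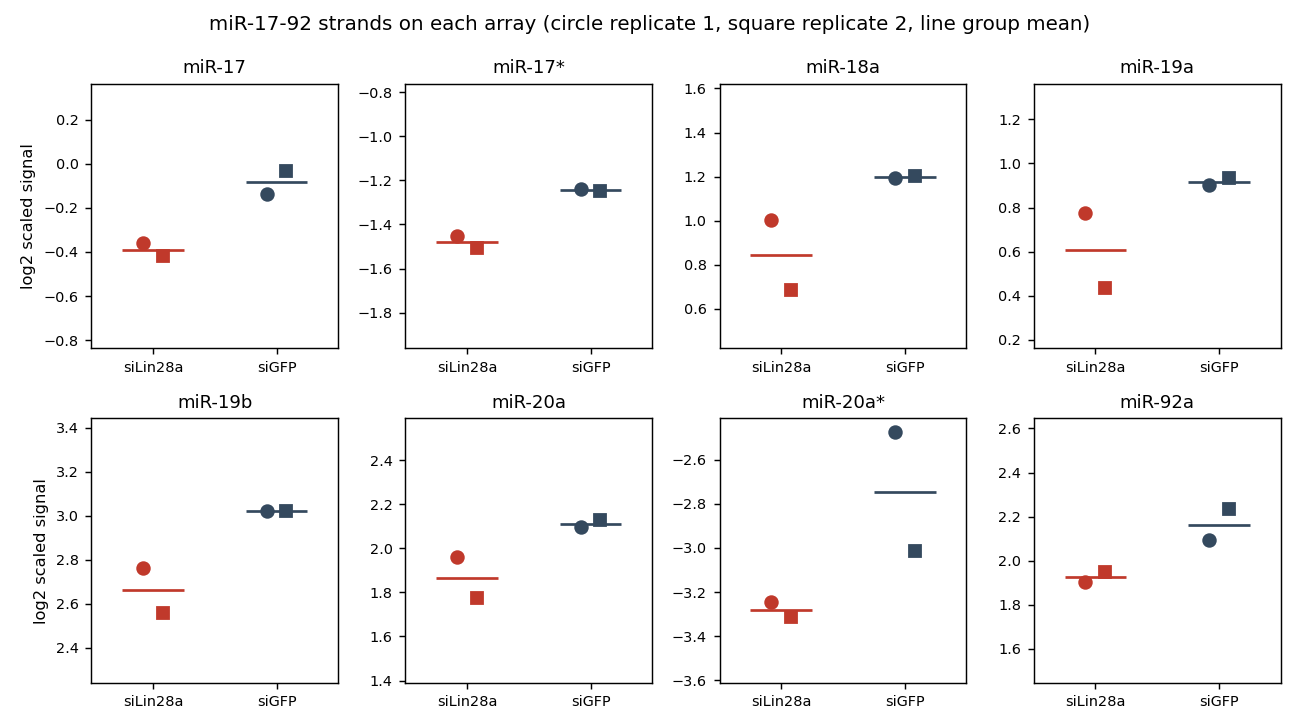
Scaled signal (log2, vertical axis) of the 8 miR-17-92 strands on each array, siLin28a at left and siGFP at right in each panel, with the group mean as a line. Each panel spans 1.2 log2 units. All siLin28a points lie below the siGFP points of the same strand, and the siLin28a replicates lie 0.32 and 0.34 apart for miR-18a and miR-19a.

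miR-17 (chr14:115043684-115043706), a guide with the AAAGUGC seed, had log2 scaled levels of -0.36 and -0.42 on the siLin28a arrays and -0.14 and -0.03 on the siGFP arrays. Replicates lay closer together than the groups did. The difference was -0.31 (SE 0.08, 95% interval -0.54 to -0.07, limma adjusted p = 0.159, n = 2 per group). miR-20a (chr14:115044183-115044205), with the same seed, had log2 scaled levels of 1.96 and 1.77 on the siLin28a arrays and 2.10 and 2.13 on the siGFP arrays. Its difference was -0.25 (SE 0.09, limma adjusted p = 0.204), and -0.15 without siLin28a replicate 2, the lowest array, or -0.34 without siLin28a replicate 1. Known targets of this seed include Cdkn1a, which encodes the cell cycle inhibitor p21.

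miR-18a (chr14:115043867-115043889), whose seed differs from that of miR-17 by a base, had log2 scaled levels of 1.00 and 0.68 on the siLin28a arrays and 1.20 and 1.20 on the siGFP arrays. The siLin28a replicates lay 0.32 apart, nearly as far as the group means. Its difference of -0.36 (SE 0.13, limma adjusted p = 0.204) was -0.20 without siLin28a replicate 2 and -0.51 without siLin28a replicate 1.

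The miR-19 guides carry the GUGCAAA seed. miR-19b (chr14:115044358-115044380), the strand with the lowest unadjusted p of the 8, had log2 scaled levels of 2.76 and 2.56 on the siLin28a arrays and 3.02 and 3.02 on the siGFP arrays. Its difference was -0.36 (SE 0.09, 95% interval -0.62 to -0.10, limma adjusted p = 0.159). miR-19a (chr14:115044048-115044070) had log2 scaled levels of 0.78 and 0.44 on the siLin28a arrays and 0.90 and 0.93 on the siGFP arrays. Its siLin28a replicates lay 0.34 apart, more than the difference between groups of -0.31 (SE 0.14, limma adjusted p = 0.260). That difference was -0.14 without siLin28a replicate 2 and -0.48 without siLin28a replicate 1.

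miR-92a (chr14:115044476-115044496), the 3′-most member of the cluster, with the AUUGCAC seed, had log2 scaled levels of 1.90 and 1.95 on the siLin28a arrays and 2.09 and 2.23 on the siGFP arrays. Here the siLin28a replicates lay 0.05 apart, and replicate 2 was the higher of them. The difference was -0.24 (SE 0.07, 95% interval -0.45 to -0.03, limma adjusted p = 0.169), and -0.15 without siGFP replicate 2.

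The passenger strands are those that are mostly discarded when a duplex is loaded. miR-17* (chr14:115043721-115043742) had log2 scaled levels of -1.45 and -1.51 on the siLin28a arrays and -1.24 and -1.25 on the siGFP arrays, a difference of -0.24 (SE 0.10, limma adjusted p = 0.259). It comes from the same hairpin as miR-17, whose difference was -0.31. miR-20a* (chr14:115044219-115044240) was the dimmest member, with log2 scaled levels of -3.25 and -3.31 on the siLin28a arrays and -2.48 and -3.01 on the siGFP arrays. Values were floored at -3.40 (each array has a dimmest signal well above background, and the highest of these was used). The siLin28a values lay close to it, with 1 of the 2 probes bright enough set to the floor on siLin28a replicate 2. siGFP replicate 1 stood 0.54 above siGFP replicate 2. Its difference of -0.54 (SE 0.21, limma adjusted p = 0.211) was -0.30 without siGFP replicate 1 and -0.79 without siGFP replicate 2. A normexp background correction, which adds an offset of 50 to every signal, gave -0.04 for this strand. Without it the 2 probes bright enough had mean spot signals of 22.8 to 42.6, and an offset above these values shrinks a log2 difference. The part of the offset in the change was not tested. Of the other passenger strands on the array, miR-18a* had total gene signals of 9.38 and 12.5 on the siLin28a arrays and 9.60 and 10.5 on the siGFP arrays. It was called detected on all 4 arrays, but none of its probes was bright enough for the test. miR-19a* was detected on 0 of 4 arrays.

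The probes of a member that were bright enough did not disagree in direction. All 16 probes that were bright enough gave lower values on both siLin28a arrays than on either siGFP array, with differences from -0.58 to -0.20 on the log2 scale. Of all 477 probes bright enough, 135 (28.3%) did so. The value of -0.58 belongs to the miR-20a* probe that was bright enough but set to the floor on siLin28a replicate 2. miR-20a* had 4 probes, of which 2 were bright enough. Its others were at the floor on all 4 arrays, with a difference of 0. With no filter on dim probes the difference of miR-20a* was -0.27. Bright enough probes of the same member differed from each other by 0.0025 to 0.12. The coefficient of variation over the spots of a probe had a median of 5.19% for the 7 brighter members (range 1.39% to 12.9%) and 11.4% for miR-20a*. Probes of a member share the RNA sample and the array, so they are not replicates.

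Before scaling, the 2 groups lay close together for most strands of the cluster. The total gene signal, which sums a miRNA's probes and is not scaled between arrays, was 276 and 288 for miR-17 on the siLin28a arrays and 285 and 314 on the siGFP arrays. For miR-92a it was 1351 and 1518 on the siLin28a arrays and 1364 and 1541 on the siGFP arrays. For miR-20a it was 1466 and 1402 on the siLin28a arrays and 1426 and 1484 on the siGFP arrays, and for miR-17* it was 133 and 139 on the siLin28a arrays and 136 and 138 on the siGFP arrays. For miR-19a it was 614 and 528 on the siLin28a arrays and 591 and 620 on the siGFP arrays. The groups overlap for each of these 5 strands. Only miR-18a, miR-19b and miR-20a* were lower without overlap in this unscaled signal. For miR-19b it was 2512 and 2380 on the siLin28a arrays and 2635 and 2693 on the siGFP arrays, and for miR-18a 722 and 628 on the siLin28a arrays and 728 and 750 on the siGFP arrays. For miR-20a* it was 16.9 and 17.5 on the siLin28a arrays and 28.0 and 18.0 on the siGFP arrays.

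Over the 8 members the ratio of siLin28a to siGFP mean unscaled signal ran from 0.748 to 0.993, while its median over all 231 tested miRNAs was 1.16. Of these 231, 16 were lower (6.93%) and 117 higher (50.6%) without overlap in the unscaled signal. The siLin28a arrays were thus the brighter ones for most miRNAs, and the lower scaled levels of the cluster are relative to that. With no scaling in the probe-level fit, the median log2 difference was 0.19 over all tested miRNAs and -0.11 over the 8 strands. The gap was -0.30, against -0.31 in the scaled data. Scaling shifts all log2 values of an array alike, so this gap could change only through probes at the floor. In the fit with no scaling 4 of the 8 strands were lower without overlap, against 10.8% of all tested miRNAs. With scaling over all probes, 8 of 8 were, against 50.2% of all tested miRNAs, whose median difference was then -0.16. Total RNA input is stated to be equal, but whether the arrays differ in labelling or in miRNA content was not tested.

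The paralogous clusters had differences of opposite sign. In miR-106b-25, all 4 tested strands had higher levels on both siLin28a arrays than on either siGFP array (30.7% of all tested miRNAs did so), with differences of 0.14 to 0.21 and a median of 0.17 on the log2 scale. None passed the test (limma adjusted p = 0.204 to 0.402). miR-106b also had higher unscaled total signals, at 944 and 930 on the siLin28a arrays and 672 and 726 on the siGFP arrays. In that signal 50.6% of all tested miRNAs were higher without overlap. In miR-106a-363, all 4 tested strands had lower levels without overlap (30.7% of all tested miRNAs did so), with differences from -0.52 to -0.23 and a median of -0.29 on the log2 scale. Again none passed the test (limma adjusted p = 0.159 to 0.346). In the unscaled signal 1 of these 4 was lower without overlap and 3 overlapped, with ratios of 0.747 to 0.987. Of these, miR-106a had log2 scaled levels of -0.30 and -0.34 on the siLin28a arrays and -0.06 and 0.07 on the siGFP arrays, with a difference of -0.32 (SE 0.08, limma adjusted p = 0.159). miR-20b differed by -0.27 (SE 0.07, limma adjusted p = 0.159) and miR-18b, which is dim, by -0.52 (SE 0.16, limma adjusted p = 0.169). miR-363 differed by -0.23 (SE 0.14, limma adjusted p = 0.346).

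**Figure D2:**
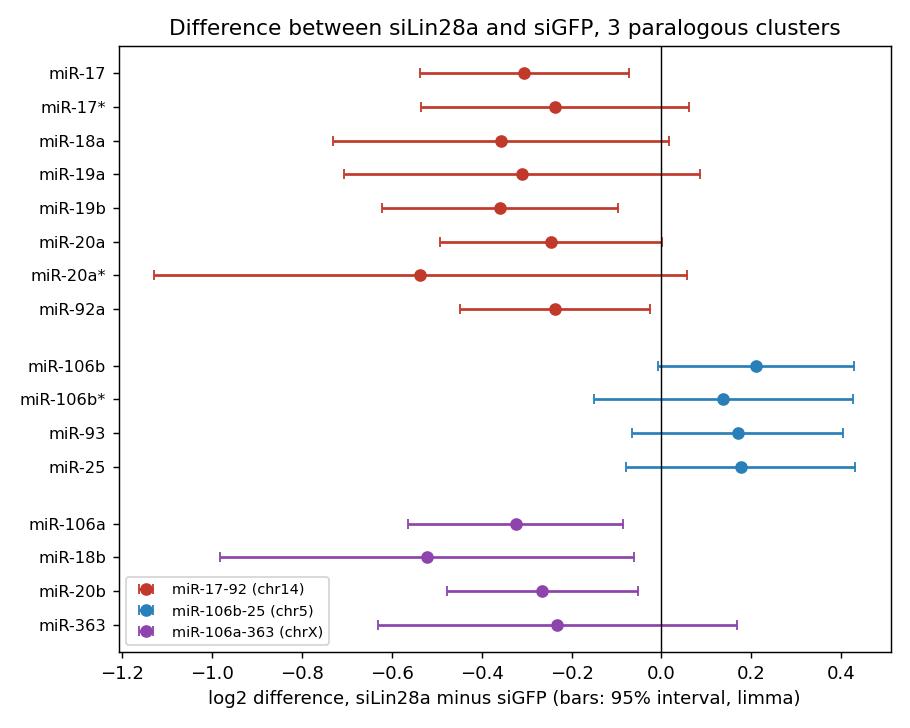
Difference in log2 scaled level between siLin28a and siGFP (horizontal axis) for each tested strand of the miR-17-92, miR-106b-25 and miR-106a-363 clusters, with 95% intervals from limma as bars. The strands of miR-17-92 and miR-106a-363 lie below 0 and those of miR-106b-25 above 0, with most intervals reaching 0.

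The log2 ratio of a member to its same-seed paralog does not depend on a scaling that multiplies each array by a factor, unless a probe is at the floor. That exception applies to miR-18b, with 1 of its 2 probes at the floor on both siLin28a arrays. The ratio of miR-17 to miR-106b was -1.74 and -1.66 on the siLin28a arrays and -1.21 and -1.16 on the siGFP arrays, a difference of -0.52 (SE 0.05). That of miR-92a to miR-25 was 1.06 and 1.01 on the siLin28a arrays and 1.46 and 1.44 on the siGFP arrays, a difference of -0.41 (SE 0.03). That of miR-20a to miR-93 was 1.17 and 0.88 on the siLin28a arrays and 1.49 and 1.39 on the siGFP arrays, a difference of -0.42 (SE 0.15). In each of these pairs the member was lower relative to its miR-106b-25 paralog on both siLin28a arrays than on either siGFP array. That had to follow, since each member was lower and each paralog higher without overlap, so it is no separate result. The exact permutation test (two-sided) gave p = 0.333 for each pair, the smallest that 2 arrays against 2 can give, and 0.667 adjusted over the 6 pairs compared.

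Against the X-linked paralogs the differences were smaller. The ratio of miR-17 to miR-106a was -0.05 and -0.08 on the siLin28a arrays and -0.07 and -0.10 on the siGFP arrays, a difference of 0.02 (SE 0.02, exact permutation p = 0.667). These 2 share a probe stretch. The ratio of miR-20a to miR-20b differed by 0.02 (SE 0.04, exact permutation p = 0.667), with overlapping groups. Both miR-20a probes differ from miR-20b at 1 base only, so this pair too may not be measured apart. For miR-18a to miR-18b the difference was 0.17 (SE 0.23, exact permutation p = 0.667), also with overlapping groups, and its error leaves either direction possible. It was below 0 in 4 of 15 other processing settings, and the ratio of miR-17 to miR-106a differed by 0.41 with outlier spots kept.

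**Figure D3:**
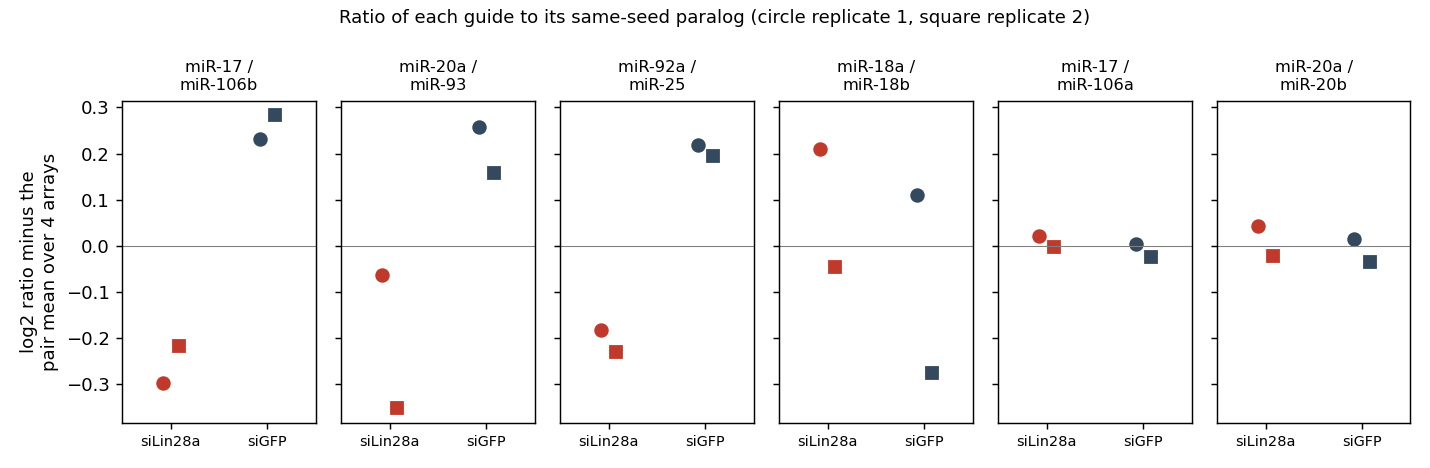
Log2 ratio of each guide to a paralog with the same seed, minus the pair's mean over the 4 arrays (vertical axis), with siLin28a left and siGFP right in each panel. In the 3 pairs with miR-106b-25 paralogs both siLin28a points lie below both siGFP points, and in the 3 pairs with X-linked paralogs the groups overlap.

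Members also differed in how far replicates lay apart. Replicate 1 minus replicate 2 with siLin28a was 0.34 for miR-19a, 0.32 for miR-18a, 0.21 for miR-19b and 0.19 for miR-20a on the log2 scale. It was 0.06 for miR-17 and miR-17*, 0.07 for miR-20a* and -0.05 for miR-92a. G and C made up 34.8% to 43.5% of the bases of the 4 guides with the wider gaps, 47.8% of miR-17, 54.5% of miR-17* and 57.1% of miR-92a, but also 40.9% of miR-20a*. This is a description of these members with no test. With siGFP the gaps were -0.14 to 0.01 for 7 members and 0.54 for miR-20a*.

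Likeness to the cluster was measured as the root mean square distance between log2 levels centred on their mean over the 4 arrays. The mean profile of the 8 strands was -0.09 and -0.24 on the siLin28a arrays and 0.18 and 0.15 on the siGFP arrays. Among tested miRNAs outside the cluster, miR-301b lay nearest (distance 0.043), then miR-20b (0.050), miR-495 (0.065), miR-496 and miR-376b (0.068 each), against a median of 0.22. The only miR-496 probe bright enough was at the floor on both siLin28a arrays. miR-301b had a difference of -0.31, miR-495 of -0.41, miR-496 of -0.27 and miR-376b of -0.41 on the log2 scale. These miRNAs were picked for a profile like that of the cluster, so lower levels with siLin28a follow from the choice. Within the cluster miR-19b lay nearest to the mean profile (0.029) and miR-20a* farthest (0.21).

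**Figure D4:**
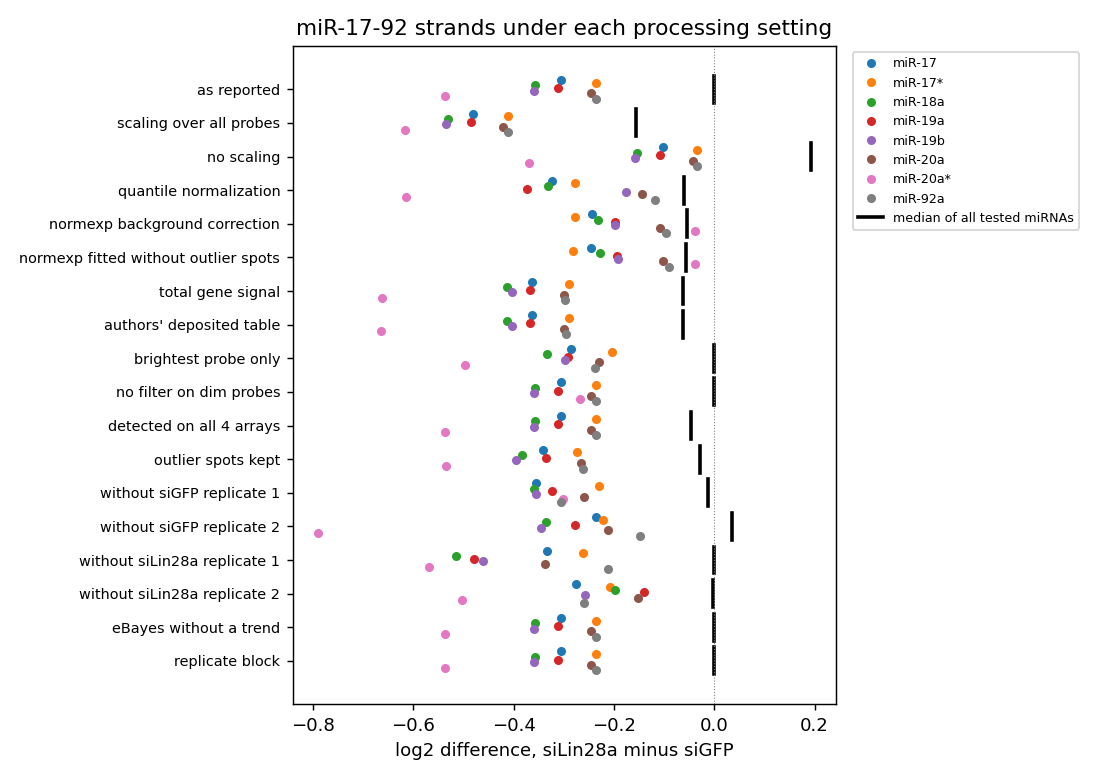
Log2 difference between siLin28a and siGFP (horizontal axis) of each miR-17-92 strand as points, under the processing as reported and each alternative (rows), with the median of all tested miRNAs as a black bar. All points lie below 0 in every row. The bar moves with the scaling, and with no scaling the points of miR-17*, miR-20a and miR-92a lie near 0.

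In the plot of processing settings, the direction of the 8 strands was the same in 17 of 17 alternatives, and no strand passed the test in any of them (limma adjusted p = 0.0669 to 0.869). The alternatives share the same 4 arrays. Fits without a trend, with replicate number as a block or on probes detected on all 4 arrays left the 8 differences unchanged. Those fits add nothing on direction. The authors' deposited table and the total gene signal hold nearly the same values. The size was less settled, and with no scaling the differences of miR-17*, miR-20a and miR-92a were -0.03, -0.04 and -0.03 on the log2 scale.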

How the data were processed

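Linear intensity values of 4 single-colour arrays were taken from the deposited scanner output. Per the file headers, Agilent Feature Extraction 9.5.1.1 made them. The submitters' processing notes name version 9.5.3.1. The processed intensity is the mean spot signal minus a background surface. The authors' deposited table holds the unscaled total gene signal (100% of values above 10 lay within 5% of the scanner files). Spots flagged as outliers were left out (3.21% to 4.32%), and no spot was saturated. Signals were averaged over spots, divided by each array's 75th percentile over 425 probes well above background on all arrays (248 and 265 for siLin28a, 226 and 220 for siGFP), floored at 0.0948 and taken to log2. Probes were kept if well above background on both siLin28a or both siGFP arrays (477 of 1712, for 231 miRNAs), then averaged per miRNA. A probe was well above background when at least 0.5 of its spots were.

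The siLin28a and siGFP groups were tested in limma 3.58.1, run in R 4.3.3 (eBayes with a trend, two-sided, Benjamini-Hochberg over 231 miRNAs, threshold 0.05). Every member is named, with the same-seed paralogs and the 5 nearest profiles. With 4 arrays, precision is limited by their number. Members and lists were chosen with earlier results of these data known. Normexp fitted without outlier spots was an alternative added after seeing the data.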

Additional observations from a re-analysis of the deposited data

How the results depend on the processing

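The direction of all 8 miR-17-92 strands held in 17 of 17 alternatives, and none was called in any. Fits without a trend, with a replicate block or with detection on all 4 arrays left the 8 differences unchanged, so they add nothing on direction. The median difference of the strands, -0.31 as reported, was -0.48 with the scaling over all probes and -0.11 with no scaling. Normexp gave -0.20, or -0.19 when fitted without outlier spots (chosen after seeing the data). It starts from the mean spot signal and the local background, and adds an offset of 50. Which of these changes matters was not tested. Relative to all tested miRNAs the median difference of the strands ran from -0.40 to -0.14. With 1 array left out the median ran from -0.40 (without siLin28a replicate 1) to -0.23. Lower levels without overlap were seen for all 8 strands as reported. They held for 7 strands with quantile normalization, 5 with either normexp fit and 4 with no scaling. The share of all tested miRNAs that did so was 30.7% as reported, 50.2% with the scaling over all probes and 10.8% with no scaling. That share was not computed for quantile normalization or for either normexp fit, so whether the counts of 7 and 5 are unusual is not known. With either normexp fit 7 of the 8 strands lay below the median of all tested miRNAs. The ratio of miR-17 to miR-106b differed by -0.58 to -0.47, miR-20a to miR-93 by -0.56 to -0.27 and miR-92a to miR-25 by -0.44 to -0.22. miR-18a to miR-18b was -0.10 with no filter, -0.12 with normexp, -0.12 with normexp fitted without outlier spots and -0.019 to 0.41 with 1 array left out. miR-20a to miR-20b was -0.013 to 0.052 with 1 array left out. miR-17 to miR-106a was 0.41 with outlier spots kept. Over all miRNAs, the calls with higher levels numbered 2 as reported, 0 with the scaling over all probes, with either normexp fit or with detection on all 4 arrays, 8 with the total gene signal or the authors' deposited table, 40 with no filter and 0 to 13 with 1 array left out (1 arm then has a lone array, assumed to vary like the other group). Lower calls numbered 0 as reported and 8 with no filter. The causes were not tested. Replicate numbers are shared between groups but nothing states that they mark a batch. Deviations of same-numbered arrays correlated at 0.71 over 231 miRNAs, and with the replicate number as a block 2 miRNAs were called, as without it, and the members' adjusted p was 0.103 to 0.194 in limma. A slide block was not run, since there was 1 slide. Signals near the floor limit what can be said of miR-20a* and miR-18b.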
